A study of Caenorhabditis elegans with 2 samples.

Results

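Regions near piRNA genes were taken from ChIP-seq of the C. elegans GATA-type transcription factor ELT-4 in late embryos. A region of the list made from both replicates pooled belonged here when its summit lay within 500 bp of an annotated piRNA gene. It also had to lie more than 500 bp from any tRNA or snoRNA gene. No measured signal entered this choice. It gave 582 of 30000 regions (1.94%), of which 431 were on chromosome IV and 151 on the other chromosomes. A further 22 regions within 500 bp of a piRNA gene were left out because a tRNA or snoRNA gene lay as near. The pooled list is labelled as peaks and background, and as input for a filter on irreproducible discovery rate. A place in it is therefore not a call of a binding site. Its median q-value was 0.662, and 0.724 near piRNA genes.

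The chromatin came from whole hermaphrodite embryos of strain OP111, genotype unc-119(ed3) III; wgIs111, collected 3 hours after synchronization by egg bleaching. The integrated transgene wgIs111 adds ELT-4 with a C-terminal GFP-FLAG tag, and per the labels the precipitation used an antibody against GFP, although the antibody field names elt-4. There was 1 group with 2 biological replicates and no group without the tag among the samples. The tagged protein comes from a transgene, and the signal of all cell types of the embryo is mixed. Sequencing depth is unknown. Every value below is therefore a description of these lists, with no test between conditions.

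C. elegans piRNAs, also called 21U-RNAs, are small RNAs that begin with U and are bound in germ cells by the Piwi protein PRG-1, which uses them to recognise and silence foreign transcripts. Most are encoded as very small separate transcription units in broad clusters on chromosome IV, many of them preceded by a promoter motif with the core CTGTTTCA. ELT-4 is a small GATA factor encoded beside elt-2, whose product is a GATA factor central to intestinal development. No role of ELT-4 at piRNA genes is assumed here.

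The annotation of build WBcel235 (the assembly of ce11) held 15363 piRNA genes of 21 bases each, 14714 of them on chromosome IV (95.8%). The exact core CTGTTTCA stood in the 60 bases before 5149 of them (33.5%), with its first base at a median of 46 bases before the piRNA. A sequence of this kind is shown for 21ur-3208, which lies at chrIV:15125779-15125799 on the minus strand, since a region summit falls beside its motif. The 60 bases before the gene are followed by the 21 bases of the piRNA itself, written 5′ to 3′ on the strand of the gene as DNA, with the core in capitals.
21ur-3208: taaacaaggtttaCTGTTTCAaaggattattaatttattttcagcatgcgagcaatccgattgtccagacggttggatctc
The sequence reaching 100 bp to either side of that summit, chrIV:15125737-15125937, is given on the plus strand, where the same core reads as its reverse complement TGAAACAG.
summit window at 21ur-3208: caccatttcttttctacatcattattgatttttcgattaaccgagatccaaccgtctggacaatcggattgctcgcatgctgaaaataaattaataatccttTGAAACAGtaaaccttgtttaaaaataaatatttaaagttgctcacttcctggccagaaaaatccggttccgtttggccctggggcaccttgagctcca

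The strongest regions had other sequence. The windows of the 2 of highest signal are shown on the plus strand because they are the only ones that reached the authors' list of peaks that passed an irreproducible discovery rate (IDR) filter. Both lie in coding sequence, and neither holds the core on either strand. The first is at chrV:6615197-6615397 in cpr-4 and the second at chrIV:14095558-14095758 in noah-2.
cpr-4 window: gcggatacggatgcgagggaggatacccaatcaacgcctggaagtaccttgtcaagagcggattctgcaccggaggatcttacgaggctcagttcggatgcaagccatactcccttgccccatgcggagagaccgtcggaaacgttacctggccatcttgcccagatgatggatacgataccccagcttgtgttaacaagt
noah-2 window: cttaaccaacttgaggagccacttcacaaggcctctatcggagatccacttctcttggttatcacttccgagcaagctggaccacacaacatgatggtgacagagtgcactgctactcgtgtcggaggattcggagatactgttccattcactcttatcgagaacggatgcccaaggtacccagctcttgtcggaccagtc
The piRNA gene nearest to the second, 21ur-4885 at chrIV:14096118-14096138 on the plus strand, is given with its 60 preceding bases for comparison, and the exact core is not among these letters.
21ur-4885: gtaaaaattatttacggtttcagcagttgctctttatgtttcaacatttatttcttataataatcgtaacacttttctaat

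Regions near piRNA genes were mostly weak. The signal of a region is the authors' own value for it, and its scale is unknown. Its median was 28.3 near piRNA genes (quartiles 24.8 and 35.6), 30.8 in the other 3906 regions of chromosome IV (25.2 and 40.4) and 30.5 in all 29418 other regions. Each list stops at 30000 regions, so these medians are those of regions that passed the lowest signal kept, 21.3 in the pooled list. Of the 582 regions, 238 (40.9%) were above the median of the pooled list and 30 (5.15%) were among its 3000 strongest, against 11.03% of the other regions of chromosome IV.

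Few of them were called. The IDR list held 2 of the 582 (0.344%, exact Clopper-Pearson 95% interval 0.0416 to 1.24), against 1.14% of the whole list and 1.46% of the other regions of chromosome IV (57 regions). A q-value of at most 0.05 was given to 11 (1.89%, 95% interval 0.947 to 3.36), against 4.26% of the whole list and 4.92% of the other regions of chromosome IV. The interval of the IDR share held the 1.14% of the whole list but not the 1.46% of the other regions of chromosome IV. That of the q-value share held neither 4.26% nor 4.92%. The intervals cover the counting of regions only, and regions of the same libraries are not replicates. The 6 regions on chromosome IV with such a q-value were 1.39% of 431, and the 5 on other chromosomes were 3.31% of 151. The share with such a q-value rose with GC content within 100 bp of the summit. For GC under 35%, 35 to 45%, 45 to 55% and more, other regions of chromosome IV had 0.577%, 1.24%, 7.46% and 26.5%. Those near piRNA genes there had 0%, 0%, 3.74% and 10.5%, the last from 2 of 19. Their median signals were 25.9, 27.5, 32.1 and 42.8, against 27.05, 28.9, 35.4 and 48.8. Medians and shares over all regions are not at equal GC content.

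The separate replicate lists showed the same order of medians. The same rule placed 617 regions near piRNA genes in replicate 1 and 680 in replicate 2. Their median signals were 15.4 and 17.3, while the other regions of chromosome IV had 16.4 and 18.4. The medians near piRNA genes were 0.943 and 0.944 times those of the other regions of chromosome IV, and 0.919 times in the pooled list. Among the strongest regions of each list, as many as the IDR list holds, 5 of replicate 1 and 3 of replicate 2 were near piRNA genes, or 0.810% and 0.441% of such regions. The exact intervals of these shares, 0.264 to 1.88 and 0.0911 to 1.28, held the share of the whole list, 1.14% in both. The other regions of chromosome IV had 1.37% and 1.55%, the second above its interval.

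**Figure D1:**
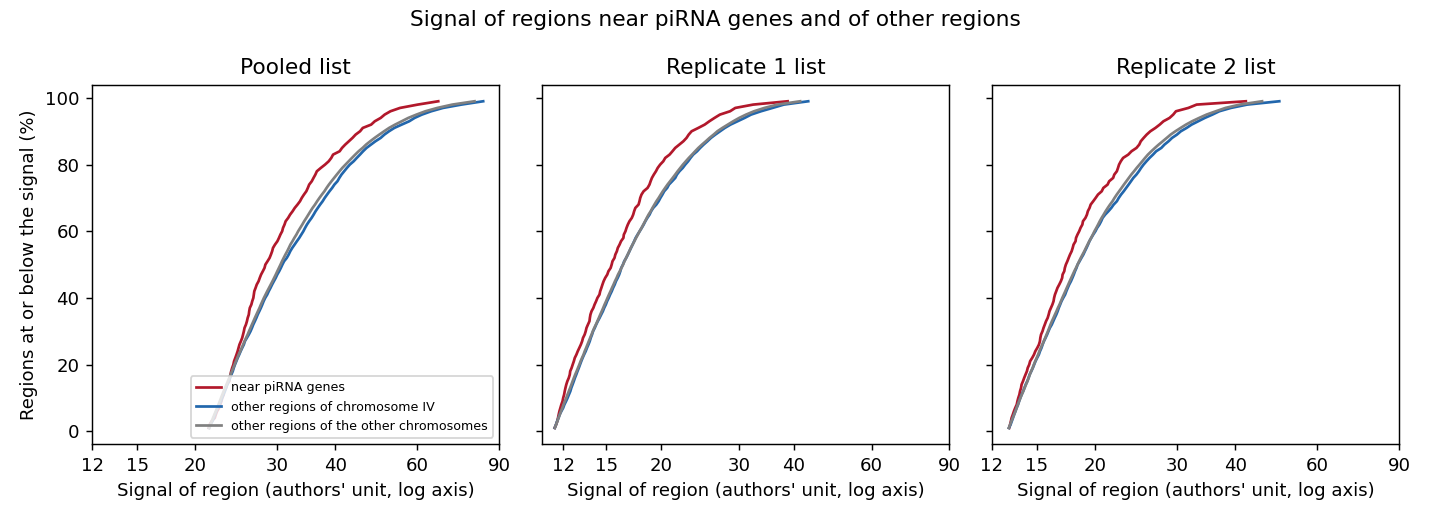
Percentiles of region signal (x, the authors' unit, log axis; y, percent of regions at or below it) in the pooled list and the 2 replicate lists, for regions near piRNA genes on all chromosomes, other regions of chromosome IV and other regions of the other chromosomes. The curve for regions near piRNA genes lies to the left of the others above the lowest values in each panel; the pooled medians are 28.3, 30.8 and 30.5.

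The 10 regions of highest signal lay 181 to 496 bp from the nearest piRNA gene, and 7 of the 10 were in coding sequence. None of the 10 had CTGTTTCA within 100 bp of the summit. The first, chrV:6615062-6615531 in cpr-4, which encodes a cathepsin B-like protease, had a pooled signal of 80.8, with 40.03 in replicate 1 and 42.0 in replicate 2 (mean 41.0 ± 1.41, SD, n = 2). It lay 362 bp from 21ur-14330. Both replicates gave it nearly the same signal, at ranks 381 and 531 of 30000.

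The second, chrIV:14095423-14095892 in noah-2, a zona pellucida domain protein of the apical extracellular matrix, had a pooled signal of 79.0. It had 54.5 in replicate 1 and 25.6 in replicate 2 (40.03 ± 20.5, n = 2). The replicates thus ranked it very differently, at 48 and 5464. The IDR list matched a cut on pooled signal, with a lowest signal of 78.7, which this region exceeded. The third, chrIII:10248748-10249217, lay in intergenic sequence 128 bp from cor-1, which encodes the actin-binding protein coronin. It had 77.3 pooled, 28.6 in replicate 1 and 45.5 in replicate 2 (37.1 ± 11.96, n = 2).

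Of the next 7, the region chrII:746899-747368 in snt-6, a synaptotagmin family gene, had 39.0 in replicate 1 and 36.9 in replicate 2 (37.9 ± 1.48, n = 2). The region chrIV:15272005-15272474 in ccg-1 lay within 500 bp of 5 piRNA genes, with 32.4 and 32.3 (32.3 ± 0.0731, n = 2). These pairs had the smallest SDs of the 7, in signals not scaled between lists whose medians were 16.4 and 18.3. Their ranks in replicates 1 and 2 were 438 and 1115 for snt-6 and 1237 and 2143 for ccg-1. The region chrII:8568230-8568699 in the cuticle collagen gene col-38 had 21.6 in replicate 1 and 42.9 in replicate 2 (32.3 ± 15.1, n = 2), the largest SD of the 7. The region chrIV:14985830-14986299 in atln-2, an atlastin gene, had 42.0 and 27.4 (34.7 ± 10.3, n = 2).
The region chrIV:14463550-14464019 in nspg-9 had 27.7 in replicate 1 and 41.5 in replicate 2 (34.6 ± 9.75, n = 2). The intergenic region chrIV:12326680-12327149, 317 bp from F19B6.3, had 29.9 and 37.2 (33.5 ± 5.18, n = 2), and 63.9% of the 36-mers in its window were unique in the genome. The region chrIV:14756344-14756813, outside protein-coding genes and in a pseudogene, had 24.3 and 39.5 (31.9 ± 10.7, n = 2) with 4 piRNA genes within 500 bp. All 10 regions were found in both replicate lists.

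The region with the most piRNA genes within 500 bp, 12 in all, was chrIV:16661240-16661709, in intergenic sequence 2845 bp from sta-1, a STAT family gene. Its pooled signal was 46.8 (rank 4133, q-value 0.239), with 22.7 in replicate 1 and 29.3 in replicate 2 (26.0 ± 4.64, n = 2). On chromosome IV the median pooled signal was 29.3 for the 181 regions with 1 piRNA gene in reach, 27.02 for the 200 regions with 2 to 4, and 27.3 for the 49 with 5 to 9. The quartiles of these sets overlapped, from 25.2 to 35.8, from 24.2 to 34.97 and from 24.4 to 30.9. The medians in the matched replicate 2 regions, 20.6, 19.4 and 20.5, followed no order either. Those in the matched replicate 1 regions fell, at 17.2, 17.1 and 16.05, the last from 27 regions.

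Signal also varied with distance on chromosome IV. The 92 regions with a summit at most 100 bp from a piRNA gene had a median of 26.6, and 0 of them reached a q-value of 0.05 or lower. The 154 regions beyond that and up to 250 bp had a median of 28.0, with 1 such q-value, and the 185 regions further out and up to 500 bp had 29.1, with 5. Just beyond the limit, the 192 regions up to 1000 bp away had a median of 28.5, with 7. GC content in the windows averaged 36.3%, 41.8%, 42.8% and 42.7% in these 4 sets. At the limit of the rule, the 3 regions just inside lay 495, 496 and 497 bp away, with signals of 36.5, 66.5 and 35.9. The 3 just outside lay 503, 503 and 504 bp away, with 26.4, 25.2 and 47.0.

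Near piRNA genes, about as many regions were in both replicate lists as not. At an overlap of at least 1 bp, 397 of the 582 regions had a counterpart in the replicate 1 list (68.2%), 433 in the replicate 2 list (74.4%), 281 in both (48.3%, 95% interval 44.2 to 52.4) and 33 in neither (5.67%). Among the other regions of chromosome IV, 56.7% were in both lists and 3.33% in neither. Across the 281 regions Spearman's rho of the replicate signals was 0.0990, and 0.303 across 2214 other regions of chromosome IV. Pooled regions can overlap, as 129 of the 582 did with another of them, and such regions can share a match: the 281 held 233 distinct pairs of replicate regions. Over distinct pairs, each with its strongest pooled region, rho was 0.0878 near piRNA genes and 0.287 in the other regions of chromosome IV (1749 pairs). These are descriptions across regions chosen for a place in all lists, which share their libraries. Of the 582 regions, 44 (7.56%) matched one of the 3000 strongest of replicate 1, 29 (4.98%) one of replicate 2 and 8 (1.37%) both. The other regions of chromosome IV had 14.5%, 15.3% and 5.48%, and all other regions 13.4%, 13.5% and 5.24%.

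**Figure D2:**
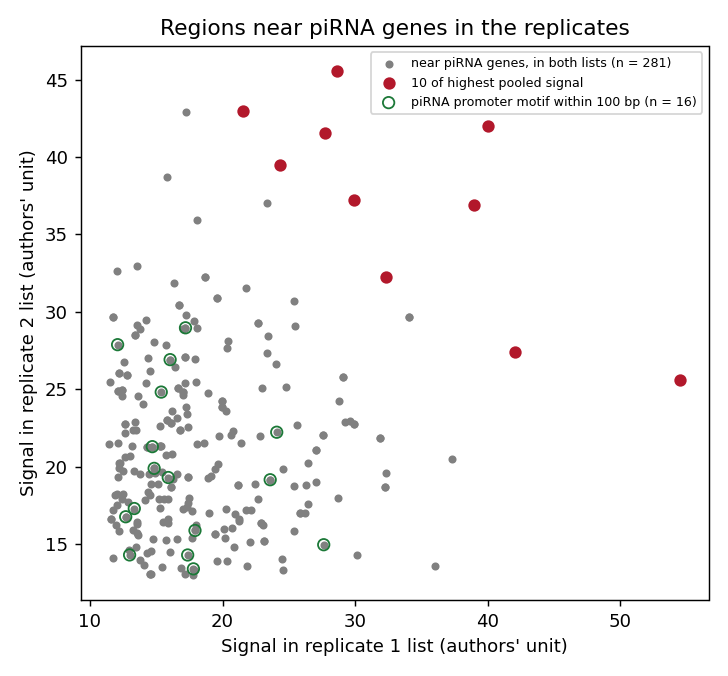
Signal in the replicate 1 list (x) and the replicate 2 list (y), in the authors' unit, for the 281 regions near piRNA genes found in both lists, 1 point a region; regions that share a match coincide, so that there are 233 distinct points. Filled red points are the 10 regions of highest pooled signal and green rings the 16 regions with CTGTTTCA within 100 bp of the summit; the rings lie among the weaker points, and across all points Spearman's rho is 0.0990.

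Chromosome IV had few regions close to its piRNA genes. Bases that met the distance rule made up 24.0% of chromosome IV (4206600 bp), but 9.94% of its 4337 pooled regions had their summit there. This came to 102 summits per Mb near piRNA genes and 294 per Mb elsewhere on the chromosome, a ratio of 0.349. In the replicate lists the ratios were 0.367 and 0.417. Of the 14714 piRNA genes on chromosome IV, 966 (6.57%) had a pooled summit within 500 bp.

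The bases near piRNA genes were also poorer in G and C. The density of regions rose with GC content both near piRNA genes and elsewhere on the chromosome. Windows reaching 100 bp to either side of a base averaged 31.0% GC there and 35.7% in the rest of chromosome IV, and 76.5% of the bases near piRNA genes had windows under 35% GC. Regions near piRNA genes on this chromosome averaged 41.0% ± 7.76 (SD over 431 regions) and the other regions 43.5% ± 7.53. Under 35% GC, pooled summits had a density of 28.9 per Mb near piRNA genes and 80.4 per Mb elsewhere. From 35 to 45% the densities were 246 and 327 per Mb, and from 45 to 55% they were 923 and 1070. At 55% or more they were 1915 and 2071 per Mb, from 19 regions in 9920 bp near piRNA genes. The ratio of the densities was below 1 in each of these 4 strata in the pooled list and in both replicate lists, and lowest in the pooled list where GC content was under 35%. It did not stay below 1 in every part of the chromosome. In the bins of 500 kb richest in piRNA genes, described below, the ratio from 45 to 55% GC was 1.02 pooled, 1.04 in replicate 1 and 1.11 in replicate 2. Above that it was 1.02, 0.895 and 1.03, from 15 pooled summits. In coding sequence the pooled ratio was 1.09 from 45 to 55% GC and 1.53 above it, the latter from 8 summits. In unique windows at 55% GC or more it was 1.40, from 12 summits. In all of these subsets it was below 1 under 45% GC, in all 3 lists.

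**Figure D3:**
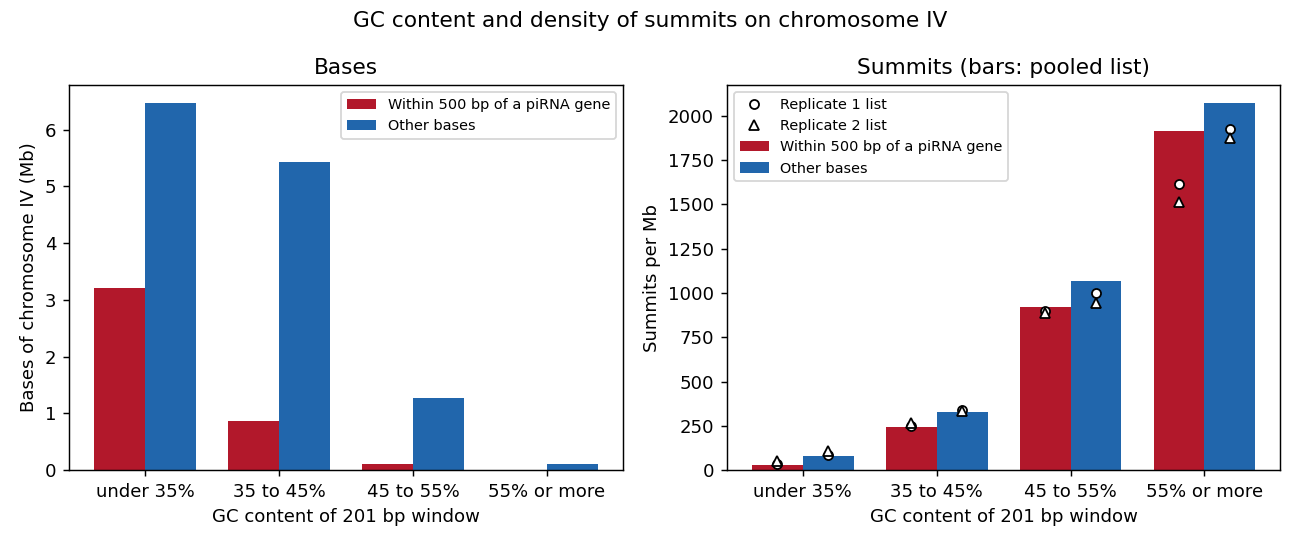
Left, bases of chromosome IV (Mb) in 4 steps of GC content of the window around each base, for bases within 500 bp of a piRNA gene (and of no tRNA or snoRNA gene) and for other bases. Right, summits per Mb in the same steps, with bars for the pooled list and symbols for the replicate lists; under 35% GC the pooled densities are 28.9 and 80.4 per Mb.

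With the density of the other bases applied at equal GC content, in steps of 1 percentage point, 603 pooled summits would lie near piRNA genes on chromosome IV, where 431 were found. The ratio of found to computed was 0.715, and it was 0.727 and 0.777 in the lists of replicate 1 and 2. Among windows with at least 95% unique 36-mers the pooled ratio was 0.682, outside coding sequence 0.677 and in coding sequence 0.827. On the other chromosomes, with 649 piRNA genes, 151 regions were found where 147 were computed in the same way, a ratio of 1.03 (1.08 and 1.03 in the replicate lists). Whether the 2 ratios differ was not tested, and their regions come from the same libraries.

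Density was lowest at the piRNA genes themselves. Within 50 bp of a piRNA 5′ end on chromosome IV there were 31.4 pooled summits per Mb, from 34 summits. In the following steps, which end at 100, 250, 500 and 1000 bp, there were 53.4, 113, 210 and 246 per Mb. The replicate lists gave 40.6 and 59.1 per Mb within 50 bp and 242 and 238 per Mb between 500 and 1000 bp. Average GC content of the windows of these bases rose as well, from 28.1% within 50 bp to 35.3% between 500 and 1000 bp, and its part in the density was not tested beyond the strata. With GC content under 35%, pooled density went from 17.8 per Mb within 50 bp to 68.3 between 500 and 1000 bp, and in the replicate lists from 30.7 to 79.6 and from 39.6 to 93.3. With 35 to 45% GC it was 224 (16 summits) and 323 at these distances, and in replicate 1 154 and 323. Replicate 2 had 321 and 316 there, so that list showed no difference of this kind.

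**Figure D4:**
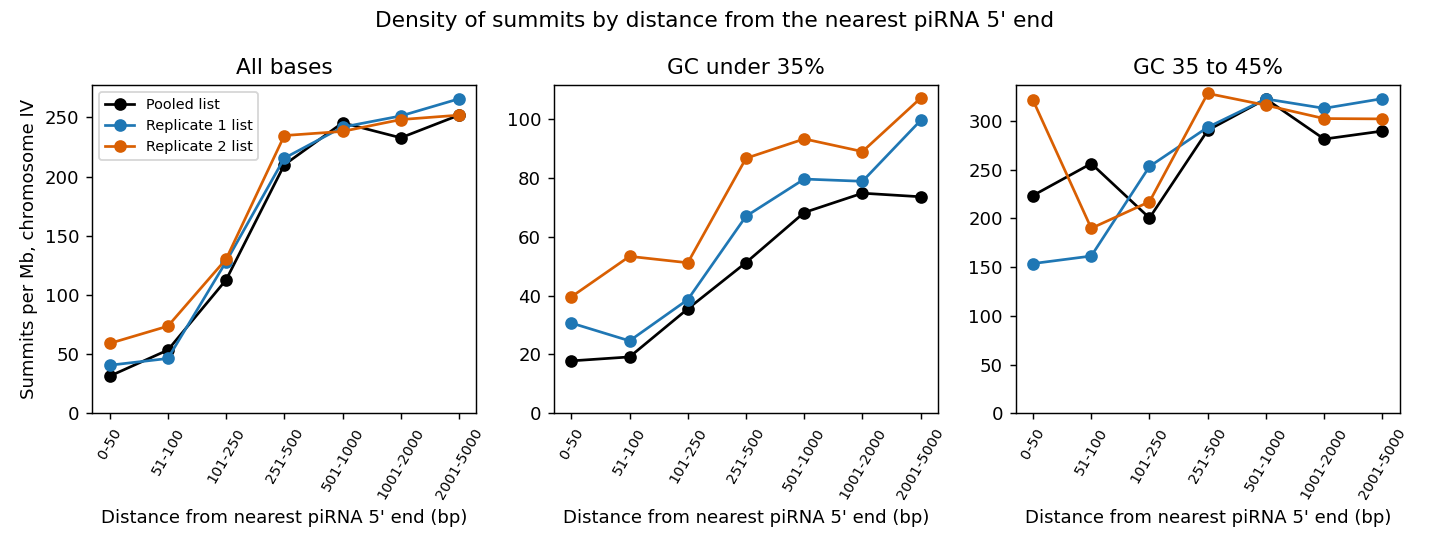
Summits per Mb of chromosome IV (y) by distance to the nearest piRNA 5′ end in bp (x, steps of unequal width, outside 500 bp of tRNA and snoRNA genes), for the pooled list and the 2 replicate lists, over all bases, bases with window GC under 35% and with 35 to 45%. Over all bases the pooled density is 31.4 per Mb within 50 bp and 246 between 500 and 1000 bp; with 35 to 45% GC the 3 lists do not follow 1 course near the 5′ end.

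By side, 252 of the 431 summits on chromosome IV (58.5%, 95% interval 53.7 to 63.2) lay at or downstream of the nearest piRNA 5′ end, where 50.4% of the bases lie. Upstream, 27 summits (6.26%) lay within 100 bp, the stretch that holds the promoter motif and 23.1% of the bases. The 100 bp from the 5′ end downstream held 52 summits (12.1%) and 22.6% of the bases. Both stretches thus had a smaller share of summits than of bases.

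CTGTTTCA was searched on both strands, within 100 bp of each summit. It was found at 40 of the 582 regions (6.87%, 95% interval 4.96 to 9.24), in 339 of 30000 pooled windows (1.13%) and at 35 of the 3906 other regions of chromosome IV (0.896%). The rule itself favours this motif, because it places summits beside genes that carry it. The fitting background is all bases of chromosome IV that meet the rule, of which 20.9% have the motif in their window. Regions near piRNA genes on that chromosome had it in 33 of 431 windows (7.66%, 95% interval 5.33 to 10.6). Under 35% GC it was in 16 of 93 windows (17.2%, 95% interval 10.2 to 26.4), against 25.01% of the bases, and from 35 to 45% in 17 of 212 (8.02%), against 8.26%. From 45 to 55% it was in 0 of 107 (upper limit of the 95% interval 3.39), against 2.42%. Over all windows the share of the bases lay above the interval, and in each of these GC strata it lay inside it.

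The 40 regions with the motif had a median pooled signal of 27.01, against 28.3 for all regions near piRNA genes. Their highest signal was 40.9, at rank 6596 of 30000. The 33 on chromosome IV had a median of 25.9 and the 7 on other chromosomes 34.9, where the whole list had 30.5. All 33 windows were under 45% GC. Regions near piRNA genes on chromosome IV had medians of 25.9 under 35% GC and 27.5 from 35 to 45%. Regions with and without the motif were not compared at equal GC content. Of the 40, 22 had a counterpart in replicate 1, 31 in replicate 2 and 16 in both. In 26 of the 40 a motif copy stood in the 60 bases before an annotated piRNA gene, on its strand. The highest was chrIV:5607497-5607966 in a UTR of fkh-7, a forkhead transcription factor gene, 17 bp from 21ur-3187, with 27.6 in replicate 1 and 14.95 in replicate 2 (21.3 ± 8.96, n = 2). The region at 21ur-3208, whose sequence is given above, had its summit 2 bp from the motif and 38 bp from the piRNA gene, in an intron of the C-type lectin gene clec-190. Its pooled signal was 28.1, rank 17904, with a q-value of 0.728, and 17.4 and 14.3 in the replicates (15.8 ± 2.18, n = 2).
Among piRNA genes of chromosome IV, 7.09% of the 5105 with the exact core in their 60 preceding bases and 6.29% of the 9609 without it had a pooled summit within 500 bp.

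The piRNA genes of chromosome IV fell into a pair of broad blocks, found as neighbouring bins of 500 kb with at least 100 piRNA genes. The first, chrIV:4500001-7000000, held 2816 piRNA genes and 134 of the regions near them, with a median signal of 27.4 against 31.4 for its other regions. The second, chrIV:13500001-17493829, held 11563 piRNA genes and 242 of the regions, with medians of 28.0 and 32.6. All regions together had densities of 206 and 165 per Mb in these blocks and 288 per Mb in the rest of the chromosome. The rest was not uniform: its 22 bins ran from 182 to 396 per Mb, and 3 of them, in the middle of the chromosome and with 16 to 39 piRNA genes each, were at or below the density of the first block. The 13 bins of the blocks ran from 122 to 318 per Mb. Within the 2 blocks the density near piRNA genes was 96.5 per Mb and that of the other bases 307 per Mb, a ratio of 0.314. At equal GC content 376 summits were found near piRNA genes in the blocks where 512 were computed, a ratio of 0.734. The rest of the chromosome held 335 piRNA genes and 55 of the regions, with a median of 29.5. Of the 58 IDR peaks on chromosome IV, 10 lay in the blocks, and 1 of these, in noah-2, was near a piRNA gene.

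By place, 178 of the 431 regions near piRNA genes on chromosome IV lay in intergenic sequence (41.3%), 129 in coding sequence (29.9%), 111 in introns (25.8%) and 13 in UTRs (3.02%). The bases that meet the rule there were 56.0% intergenic, 12.6% coding and 29.0% intronic. The other regions of the chromosome were 28.6% intergenic and 41.0% coding. Median signal was 29.7 for the coding, 28.2 for the intronic and 26.9 for the intergenic regions. The coding regions were also the richest in GC (44.1%, against 39.7% and 39.8%).

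On the other chromosomes, regions near piRNA genes numbered 44 on X, 37 on V, 35 on II, 19 on I and 16 on III. Their median signal was 29.3, against 30.5 for the other 25512 regions of those chromosomes. The medians near piRNA genes were 31.4 on II and 30.6 on X, where the other regions had 30.8 and 30.3, and lower than those of the other regions on I, III and V. These are small sets, and their quartiles together ran from 25.5 to 36.3. A pooled summit lay within 500 bp of 136 of the 649 piRNA genes (21.0%), in sequence with far fewer piRNA genes per Mb than chromosome IV.

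Genes of the piRNA pathway were looked at beside the piRNA genes themselves, from a list of 30, of which 28 were found as protein-coding genes under their symbols (prg-2 and tofu-3 were not). A pooled summit from 1000 bp upstream to 200 bp downstream of a start site was present for 13 of 28 (46.4%), and for 33.7% of all 19973 protein-coding genes. None of the 28 had an IDR peak there, where 0.571% of all protein-coding genes had one. None had a region that reached a q-value of 0.05 or lower, against 2.07%. At shares this low, a count of 0 among 28 genes does not set the list apart from other genes. The strongest of these regions was at csr-1, an Argonaute that protects germline transcripts from silencing, with a signal of 60.6 (rank 1424, q-value 0.0615) and 28.8 and 30.1 in the replicates (29.5 ± 0.947, n = 2). Next came ife-3, a cap-binding subunit of the piRNA precursor complex PETISCO, with 44.1 (20.2 ± 2.83, n = 2), and znfx-1, a germ granule helicase, with 42.0 (22.0 ± 3.89, n = 2). The remaining 10 had signals of 21.5 to 41.6. No pooled summit stood in this window of prg-1, of prde-1 or snpc-4, whose proteins act at piRNA promoters, or of parn-1, which encodes the trimming enzyme of piRNA 3′ ends.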

How the data were processed

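Region lists in narrowPeak layout were deposited on builds ce10 and ce11; the ce11 lists were used. Signal (column 7) and −log10 of a q-value (column 9) are the values the authors deposited for each region. Per the labels, ELT-4-eGFP chromatin was sonicated and precipitated. Not given in the sources used here were the aligner, the peak caller and their versions. No depth was used, so no value can be set against it.

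Annotation was Ensembl release 115 on WBcel235, with 612 tRNA and 346 snoRNA genes; sequences are RefSeq's for the same assembly. Coordinates are 1-based. Pooled regions were matched to the strongest overlapping replicate region (at least 1 bp). Signals were not scaled between lists. Windows reach 100 bp to either side of the summit; 36-mers were counted on both strands. The nearest-gene, overlap and 36-mer steps were tested on simulated data. Python 3.11.15, NumPy 2.4.6, pandas 2.3.3 and SciPy 1.17.1 were used. No p-value was computed, since regions are not replicates.

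Members, lists and comparisons were chosen with earlier results of these data known. Named regions were the 10 of highest signal, those in the IDR list, that with the most piRNA genes, those at the distance limit, and those whose sequences are shown. Named pathway genes were those with an IDR summit and the 3 with the strongest region; those named without a summit, and the region of highest signal with the motif (in fkh-7), were chosen after their values were seen. Alternatives were other distances, edges in place of summits, each replicate list alone, unique sequence, a q-value limit, other motif windows and other overlaps.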

Additional observations from a re-analysis of the deposited data

How the results depend on the processing

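Spread between the replicate lists set the scale for these values, and it was small for the ratio of medians, so all 9 alternatives moved that ratio by more than the spread. With 250 bp in place of 500 bp there were 316 regions, a ratio of medians to the other regions of chromosome IV of 0.903, 0 IDR peaks, CTGTTTCA in 10.1% of windows and 2.94% of piRNA genes with a summit. With 1000 bp there were 929 regions, a ratio of 0.928, the motif in 4.95% and 15.6% of piRNA genes with a summit. Distance from the region's edge gave 0.931 and 5.77%, chromosome IV alone 0.908 and 7.66%, tRNA and snoRNA regions kept 0.920, and unique sequence 0.921. Among regions with a q-value of at most 0.05, 11 were near piRNA genes, with a ratio of 0.943, 18.2% in the IDR list, 0% with the motif and 100% matched in both replicate lists. Calling by that q-value in place of the IDR list gave 1.89%. The motif was in 21.1% of windows of 250 bp on each side, and TGTTTCA, its last 7 letters, in 12.7%. Requiring an overlap of 50% of the pooled region, 37.8% were matched in both lists. Without replicate 1 or without replicate 2 the ratio was 0.943 to 0.944, the IDR share by rank 0.441 to 0.810%, the motif share 7.79 to 8.59% and the share of piRNA genes with a summit 7.80 to 9.67%. No share matched in both lists exists there by construction. The ratio of densities, 0.349, ran from 0.367 to 0.417 without a replicate, was 0.715 with GC content held fixed and 0.523 in coding sequence; these settings were chosen after seeing the data. On chromosome IV and over all GC contents together, it stayed below 1 in all 7 settings tried, as did the ratio of medians in all 9. These settings include the replicate lists that set the spread. In some single GC strata given above the ratio of densities exceeded 1. On the other chromosomes the ratio of found to computed summits at equal GC content was 1.03. The pathway count was 0 in all 4, which carries little information for 28 genes at such low shares. Spearman's rho over distinct pairs, also chosen after seeing the data, was 0.0878. Sequencing depth is unknown, and the 30000 regions kept per list cut off weaker ones.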

Other observations

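Of the 582 regions near piRNA genes, 341 lay inside 228 protein-coding genes, and 170 of these genes held a single region. The 9 genes with 5 or more regions, named after their values were seen, were all on chromosome IV. The forkhead gene fkh-7 had 8 such regions with signals of 25.3 to 43.5 and 78 piRNA genes within its 25.7 kb. The ankyrin gene unc-44 had 7, with signals of 29.3 to 51.3 and 20 piRNA genes in 29.3 kb, and 0 of the 7 were in introns. The netrin receptor gene unc-5 had 6, all in introns, with signals of 23.99 to 31.1 and 97 piRNA genes in 32.7 kb. The potassium-chloride cotransporter gene kcc-2 had 5, with signals of 22.4 to 52.1, and 98 piRNA genes in 33.5 kb. The highest rank of any of these regions in the 9 genes was 2120 of 30000.

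The 22 regions near a piRNA gene that were left out for a tRNA or snoRNA gene had a median signal of 29.4 and a highest of 86.2. Of the 22, 1 was an IDR peak, where the whole list had 1.14%. A single region does not set them apart from the whole list.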
